A study of Mus musculus with 2 samples.

Results

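Ccl21a-high medullary thymic epithelial cells were selected from droplet single-cell RNA profiles of mouse thymic stroma. A cell entered the class if it held at least 50 Ccl21a UMIs per 10000 (UMI: a molecular tag that counts 1 captured RNA once), at least 3 UMIs over Krt5 and Krt14, no Aire UMI, and fewer than 20 UMIs per 10000 over Col1a1, Col1a2 and Col3a1. The cell filter asked for 500 genes and 1000 UMIs or more, with mitochondrial UMIs at 10% or less. The rule found 484 cells among the 11774 that passed this filter, 295 of 3588 in library 1 and 189 of 8186 in library 2. Their share of passing cells was 8.22% (95% exact interval 7.34 to 9.17%) in library 1 and 2.31% (1.99 to 2.66%) in library 2. These intervals, and every other interval and floor given here, cover counting error only. Barcodes shared by both libraries numbered 30, and 1 Ccl21a-high cell of each library carried such a barcode.

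The medulla of the thymus receives thymocytes that have passed selection in the cortex. CCL21, a chemokine bound by the receptor CCR7, is known to draw these thymocytes in, and in mice the medullary cells that make it are distinct from those that express Aire, the regulator that lets epithelium transcribe tissue-restricted self-antigens. Ccl21a-positive medullary cells are known to depend on the lymphotoxin receptor, while Aire-positive cells depend on RANK, a related receptor encoded by Tnfrsf11a. Keratins 5 and 14 mark the basal layer of stratified epithelia and much of the medullary epithelium.

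Both libraries carry the genotype label E2F_M11: CRISPR-Cas9 had taken out 2 sites for E2F factors from the proximal promoter of Foxn1, the transcription factor on which thymic epithelium depends. Cells were enzymatically released from thymus and depleted of CD45-positive blood cells on magnetic beads, a step that sets the share of thymocytes. The comparison of the study was with wild-type stroma, which was not analysed here, so all cells in all classes below carry the deletion and no value measures its effect. Age and sex of the animals, and whether the libraries came from separate animals, are not given in the labels. The p-values below rest on these 2 libraries. They weigh a difference between classes against the spread left once the mean difference between the libraries is removed. That spread is pooled over all classes fitted, those outside the epithelium included, and it may be technical.

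Ccl21a belongs to a cluster of near-identical gene copies on chromosome 4. The gene that was counted lies at chr4:42772860-42773993 on the minus strand (GRCm38), and the copy Gm21541 at chr4:41903610-41904743 on the plus strand. Bases 61 to 220 of their coding sequences of 402 bases, read from the GENCODE transcripts, are shown because the definition of the class rests on this gene. Capitals mark the 2 bases at which the coding sequences differ, and both lie in this stretch.
Ccl21a: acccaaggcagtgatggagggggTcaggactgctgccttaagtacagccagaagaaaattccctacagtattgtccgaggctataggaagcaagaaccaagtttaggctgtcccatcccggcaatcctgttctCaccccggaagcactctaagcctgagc
Gm21541: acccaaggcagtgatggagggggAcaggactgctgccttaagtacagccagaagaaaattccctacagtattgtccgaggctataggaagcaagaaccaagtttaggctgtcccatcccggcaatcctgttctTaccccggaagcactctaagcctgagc
The identity over the whole coding sequence was 99.5%. Downstream of the stop codon, where 3' reads fall, 3 of 393 aligned bases differed. Gm21541 collected 294 UMIs in library 1 and 121 in library 2, of which 200 and 66 were in Ccl21a-high cells, against 47979 and 35796 UMIs for Ccl21a. Reads of such copies can be split or dropped in counting, so values of Gm21541 are uncertain and the level of Ccl21a may be understated.

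The values used for selection are a description. Ccl21a-high cells held a median of 106 Ccl21a UMIs per 10000 in library 1 (range 50.3 to 493) and 119 in library 2 (50.2 to 390). They held 75.6% of the 47979 Ccl21a UMIs in all barcodes of library 1 and 47.8% of the 35796 in library 2. Among cells that met every term but the one on Ccl21a, 59.8% of 493 cells in library 1 and 41.4% of 456 in library 2 were Ccl21a-high. Of the others, 121 of 198 cells in library 1 and 194 of 267 in library 2 held under 10 Ccl21a UMIs per 10000. The rest ran up to the threshold without a gap. In library 1, 10 cells held 1 to 10 UMIs per 10000, 17 held 10 to 25, 60 held 25 to 50 and 128 held 50 to 100. In library 2 these numbers were 54, 32, 41 and 76. Cells with little or no Ccl21a thus lay apart from an upper group, more clearly so in library 1. The threshold cut through the lower side of that upper group. The 3 cells nearest to the threshold held 50.3, 51.3 and 51.3 UMIs per 10000 inside and 49.9, 49.7 and 49.7 outside it in library 1. In library 2 they held 50.2, 50.3 and 50.7 inside and 49.9, 49.8 and 48.8 outside. The keratin term removed 183 cells with enough Ccl21a in library 2 and 11 in library 1 when it alone failed. Those 183 cells had a median of 1305 UMIs, and the part of depth and free RNA in the share of library 2 was not tested.

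**Figure D1:**
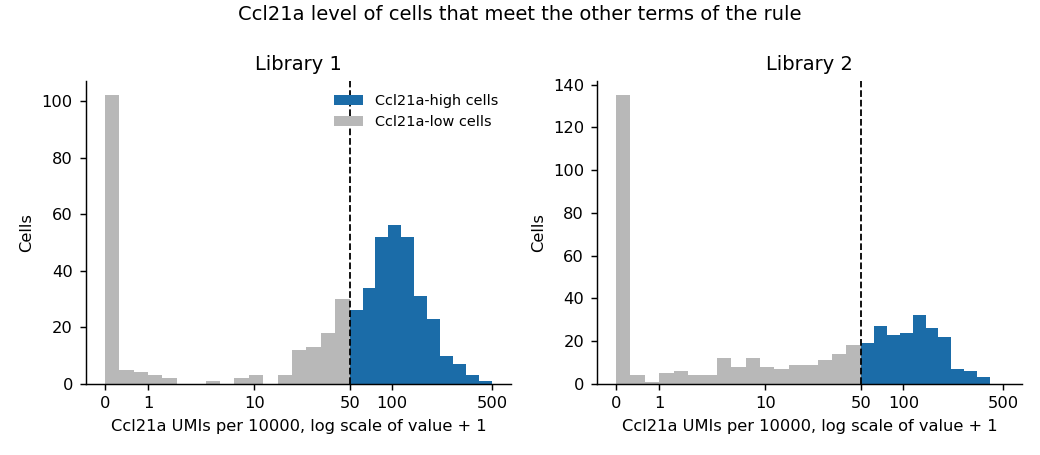
Histograms of Ccl21a UMIs per 10000 (log scale of value + 1) in the 493 and 456 cells of libraries 1 and 2 that met the other terms of the rule, with the threshold of 50 as a dashed line. The Ccl21a-high cells have medians of 106 and 119 and join, with no gap at the threshold, a tail of cells with less Ccl21a. In library 1, 10 cells lie at 1 to 10 UMIs per 10000, against 54 in library 2. The cells with none stand at the left edge.

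Of the epithelial markers outside the rule, Epcam was found in most of these cells. Epcam, an adhesion molecule of epithelia, had a UMI in 97.6% of Ccl21a-high cells in library 1 and 86.2% in library 2, with median depths of 8499 and 5004 UMIs. With every cell thinned to 1000 UMIs the shares were 62.7% and 55.0%. The fibroblast, endothelial and thymocyte classes were gated on having no Epcam UMI, so they give no background for this gene. Of the cortical markers, Psmb11, the thymoproteasome subunit, had 5.53 and 5.85 CPM (UMI counts scaled to a common total per class and library) in Ccl21a-high cells. Cortical cells held 1213 and 1225 CPM, but that class was selected in part on Psmb11, so the contrast follows from its gate. The cortical markers Cxcl12 and Dll4, which no gate uses, are given with the cortical comparison below. The 5 epithelial markers Epcam, Krt8, Krt18, Cdh1 and Cldn4 summed to 3595 and 3807 CPM in Ccl21a-high cells. Their sums were 9223 and 7615 CPM in cortical cells and 41.7 and 163 CPM in fibroblasts, where Epcam was gated out. Cldn4 was low in Ccl21a-high cells, as given below. Fibroblast markers outside the rule (Pdgfra, Dcn, Lum and Mfap5) summed to 252 and 725 CPM in Ccl21a-high cells, which is 1.77% and 4.88% of their sum in fibroblasts. Of the 7 thymocyte markers none was at 0, and they summed to 93.4 CPM in library 1 and 288 CPM in library 2. At least 2 thymocyte-marker UMIs were present in 20.0% and 49.7% of Ccl21a-high cells, and in 15.2% and 50.7% of fibroblasts, a class that should lack them. Macrophage and dendritic markers summed to under 6 CPM in either library, with Csf1r at 0 in library 1 and Adgre1 and Xcr1 at 0 in library 2.

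To compare Ccl21a-high cells with other epithelium, UMIs were summed per library in 7 classes and tested with edgeR's quasi-likelihood test with the library as a block. The 3 reference classes were Aire-positive medullary cells (275 and 244 cells in libraries 1 and 2), Krt5/Krt14-positive cells with Ccl21a below the threshold (176 and 263 cells, called Ccl21a-low here) and cortical cells defined by Psmb11, Prss16 and Ccl25 (74 and 110 cells). The threshold for a call was an adjusted p of 0.05 (Benjamini-Hochberg, over all genes tested). Genes used by a gate of either class compared are given as levels with no test. All values in pairs are for library 1 and library 2 in that order, and CPM is a gene's share of the summed UMIs of the class in that library, not divided by gene length, so it is compared only between classes. The comparisons share the Ccl21a-high libraries, so their results are not independent of each other. Doublets and free RNA were not removed.

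Of 14190 genes tested against Aire-positive cells, 29.0% were called, 1651 higher (11.6%) and 2468 lower (17.4%), and the median log2 fold over all genes was -0.05. Of the called genes, 4111 of 4119 moved the same way in both libraries. Against Ccl21a-low cells 3.16% of 14188 genes were called, 55 higher (0.388%) and 394 lower (2.78%), with a median of -0.02. Against cortical cells 7.34% of 14188 genes were called, 542 higher (3.82%) and 500 lower (3.52%), with a median of 0.04. Ccl21a-high cells thus differed in the fewest genes from the Ccl21a-low cells, and most of the genes that differed there were lower in Ccl21a-high cells. How the numbers of cells and their depth bear on these counts was not tested beyond thinning, which is given with the alternatives.

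**Figure D2:**
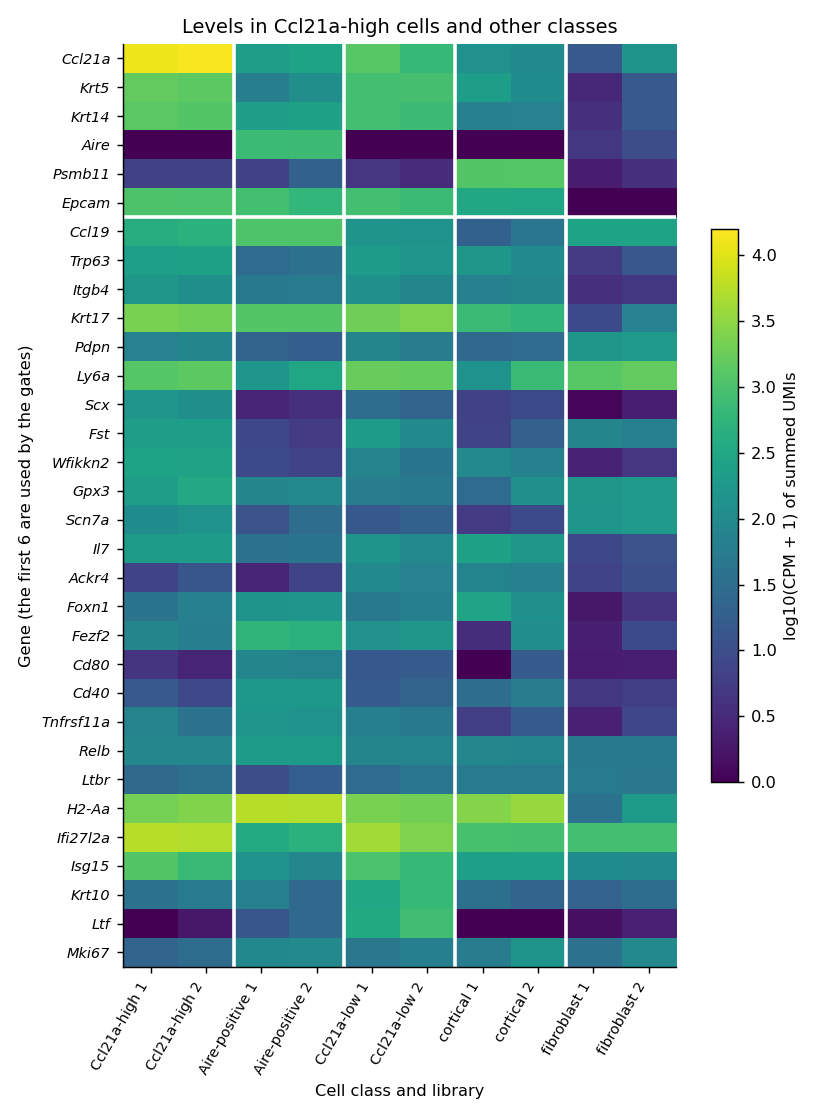
Heat map of summed levels, log10(CPM + 1), of 32 genes (rows) in Ccl21a-high, Aire-positive, Ccl21a-low, cortical and fibroblast classes (columns, libraries 1 and 2 of each). Trp63, Fst and Ifi27l2a are bright in Ccl21a-high and Ccl21a-low cells and dark or dimmer in Aire-positive cells, where Fezf2, Cd80 and Cd40 are brighter.

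Against Aire-positive cells, the lists of mimetic, cell cycle and NF-kB genes had more genes called lower in Ccl21a-high cells than higher. The lists of interferon response, basal adhesion and Notch, FGF, BMP, WNT and TGF-beta pathway genes had more called higher. Each list count in this comparison stands beside 11.6% of all genes called higher and 17.4% called lower. In the list of lymphotoxin, RANK and NF-kB genes, 6 of 30 tested genes were called higher and 12 lower, with a median log2 fold of -0.89. Cd40, a costimulatory receptor that feeds into NF-kB, had 13.8 and 7.52 CPM in Ccl21a-high cells, against 174 and 172 CPM in Aire-positive cells (log2 fold -3.98, SE 0.44, adjusted p = 0.000209). Tnfrsf11b, the decoy receptor for RANK ligand, had 6.57 and 3.34 CPM, against 146 and 123 CPM in Aire-positive cells (-4.77, SE 0.55, adjusted p = 0.000268). Relb, the noncanonical NF-kB subunit, was lower as well, at 86.4 and 87.7 CPM against 209 and 190 CPM (-1.29, SE 0.33, adjusted p = 0.0135). For RANK itself, Tnfrsf11a had 74.3 and 39.3 CPM in Ccl21a-high cells and 162 and 142 CPM in Aire-positive cells, and the difference missed the threshold (-1.47, SE 0.52, adjusted p = 0.0523), although it was called under 7 of 11 alternatives. The lymphotoxin receptor Ltbr went the other way: 27.0 and 34.3 CPM in Ccl21a-high cells, against 8.95 and 16.8 CPM in Aire-positive cells (1.21, SE 0.40, adjusted p = 0.0396). Its call was lost under 6 of 11 alternatives. Ccl21a-low cells had 28.2 and 43.9 CPM of Ltbr, and that difference was not called (-0.12, SE 0.38, adjusted p = 0.933). After thinning, 2.71% and 3.17% of Ccl21a-high cells held an Ltbr UMI, against 1.09% and 1.23% of Aire-positive cells. The shares were 1.70% and 4.18% in Ccl21a-low cells, 2.70% and 5.45% in cortical cells and 4.87% and 3.56% in fibroblasts. The level of Ltbr was thus not particular to Ccl21a-high cells. Tnfrsf12a, the receptor for TWEAK, and Tnfrsf1a, the TNF receptor, were also higher than in Aire-positive cells, by log2 folds of 2.29 and 1.99.

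In the same comparison 3 of 20 tested chemokine list genes were called higher and 8 lower, beside 11.6% and 17.4% of all genes. The share called higher was thus near that of all genes. Ccl11, a ligand of CCR3, had 461 and 245 CPM in Ccl21a-high cells, against 32.3 and 22.5 CPM in Aire-positive cells (log2 fold 3.56, SE 0.51, adjusted p = 0.000716). Ccl7 was higher too, at 37.7 and 30.9 CPM against 3.16 and 8.15 CPM. Fibroblasts held more of both, 834 and 500 CPM for Ccl11 and 112.1 and 69.6 CPM for Ccl7, next to the 1.77% and 4.88% of fibroblast markers given above. The CCR4 ligands were near 0 in Ccl21a-high cells: Ccl17 had 1.38 and 0.836 CPM, against 71.9 and 118 CPM in Aire-positive cells, and Ccl22 had 1.38 and 0.836 CPM, against 36.0 and 78.1 CPM. Ccl19, the second ligand of CCR7, lies at chr4:42754525-42756577 on the minus strand, close to Ccl21a. It had 408 and 480 CPM in Ccl21a-high cells, against 1106 and 1116 CPM in Aire-positive, 146 and 135 CPM in Ccl21a-low and 19.4 and 44.0 CPM in cortical cells. The libraries of these 4 classes did not overlap, with Aire-positive cells highest and Ccl21a-high cells next. Of these differences the one from cortical cells passed the test (4.08, SE 0.64, adjusted p = 0.00364), while those from Aire-positive (-1.41, SE 0.53, adjusted p = 0.0682; called under 6 of 11 alternatives) and Ccl21a-low cells (1.77, SE 0.54, adjusted p = 0.116) did not.

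Genes of basal adhesion and epithelial identity were more often higher than lower. Against Aire-positive cells, 13 of 32 tested genes for keratins and adhesion were called higher and 5 lower (median log2 fold 1.02), and 12 of 27 identity and progenitor-linked genes were higher and 3 lower (median 1.47). Trp63, which encodes the p63 factor of stratified epithelia, had 231 and 245 CPM in Ccl21a-high cells, against 28.9 and 37.4 CPM in Aire-positive cells (2.76, SE 0.57, adjusted p = 0.00483). Lamb3, a chain of the basement membrane laminin to which basal cells attach, had 124 and 103 CPM, against 14.2 and 9.58 CPM in Aire-positive cells. Itgb4, the hemidesmosome integrin that binds that laminin, had 163 and 124 CPM, against 49.5 and 53.7 CPM in Aire-positive cells (1.37, SE 0.42, adjusted p = 0.0310). Cdh3, which encodes P-cadherin, was higher by a log2 fold of 2.87. The tight junction genes Cldn4 and Cldn3 were lower, with 2.07 and 2.51 CPM of Cldn4 in Ccl21a-high cells, against 101 and 87.7 CPM in Aire-positive cells. The podoplanin gene Pdpn was higher at 72.3 and 85.2 CPM, against 21.2 and 16.8 CPM (1.93, SE 0.40, adjusted p = 0.00505), and so was Ly6a, which encodes the surface antigen Sca-1, at 1222 and 1409 CPM against 161 and 291 CPM (2.49, SE 0.67, adjusted p = 0.0172). Fibroblasts held 169 and 182 CPM of Pdpn and 1265 and 1566 CPM of Ly6a. Krt15 and Krt17 were not called in this comparison (adjusted p = 0.0804 and 0.428).

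Genes of secreted antagonists and of a transcription factor were among the highest folds here. Fst, which encodes the activin antagonist follistatin, had 229 and 226 CPM in Ccl21a-high cells, against 7.02 and 4.31 CPM in Aire-positive cells (log2 fold 5.20, SE 0.52, adjusted p = 0.000155). Wfikkn2, whose product binds growth factors of the TGF-beta family, had 271 and 266 CPM, against 7.89 and 6.23 CPM (5.13, SE 0.49, adjusted p = 0.000148). Scx, the basic helix-loop-helix factor scleraxis known from tendon, had 154 and 124 CPM, against 1.75 and 2.87 CPM (5.92, SE 0.59, adjusted p = 0.000194). In fibroblasts Scx had 0.177 and 1.24 CPM. Igfbp5, an insulin-like growth factor binding protein gene, had 1164 and 1781 CPM in Ccl21a-high cells, against 51.4 and 83.8 CPM in Aire-positive cells, and 1529 and 806 CPM in fibroblasts. Among the other genes with the highest folds were Boc, a hedgehog co-receptor gene (5.10), Tagln, an actin-binding protein gene of contractile cells (4.94; 6.26 in library 1 alone and 3.78 in library 2 alone), Slc27a3 (4.83; 5.19 and 4.13), Ddit4l (4.76) and Gm8113 (5.99). Mural cell markers summed to 567 and 403 CPM in Ccl21a-high cells, against 345 and 326 CPM in Aire-positive cells, and their part in the Tagln value was not tested.

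Of 32 tested genes of the Notch, FGF, BMP, WNT and TGF-beta pathways, 20 were called higher than in Aire-positive cells and 3 lower, with a median log2 fold of 1.46 against -0.05 over all genes. Fgfr2, which encodes a receptor for epithelial growth signals of the FGF family, had 88.9 and 97.8 CPM in Ccl21a-high cells, against 3.86 and 4.79 CPM in Aire-positive cells (4.38, SE 0.42, adjusted p = 0.000153). Tgfbr1, a TGF-beta receptor gene, had 75.03 and 52.6 CPM, against 16.3 and 16.8 CPM (1.87, SE 0.25, adjusted p = 0.00055). Tgfbr1 is the list gene that was also called higher against Ccl21a-low cells, where it had 35.2 and 26.6 CPM (1.15, SE 0.25, adjusted p = 0.0311). Erbb3, a receptor gene of the EGF family, was lower than in both classes, with 2.07 and 3.34 CPM in Ccl21a-high cells, against 9.47 and 9.58 CPM in Aire-positive and 20.8 and 30.9 CPM in Ccl21a-low cells. Among cytokines, Il7, which thymocyte precursors need, had 196 and 200 CPM in Ccl21a-high cells, against 36.1 and 39.8 CPM in Aire-positive cells (2.30, SE 0.36, adjusted p = 0.00112). Tgfb3 was higher (2.08) and Tgfb2 lower (-2.76; -3.56 in library 1 alone and -1.85 in library 2 alone), in a list with 3 of 20 tested genes higher and 6 lower. In the list of complement and matricellular genes 6 of 24 were higher and 3 lower. For the cytokine and complement lists alike, the shares over all genes were 11.6% higher and 17.4% lower. Apoe, the apolipoprotein E gene, had 2458 and 2838 CPM in Ccl21a-high cells, against 81.2 and 324 CPM in Aire-positive cells (3.66, SE 0.75, adjusted p = 0.00452), and 1782 and 1992 CPM in fibroblasts. Adamts1, a matrix protease gene, had 96.1 and 74.4 CPM, against 7.37 and 8.15 CPM in Aire-positive cells. Lgals3 was lower at 1.38 and 2.51 CPM, against 38.4 and 67.6 CPM.

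Calls were mixed in the lists for costimulation, antigen presentation and medullary regulators. Against Aire-positive cells, 1 of 14 tested costimulation and checkpoint genes was called higher and 5 lower, beside 11.6% and 17.4% of all genes. Cd80, a ligand of CD28, had 3.46 and 1.67 CPM in Ccl21a-high cells, against 80.3 and 75.2 CPM in Aire-positive cells (-4.84, SE 0.76, adjusted p = 0.00115), and Cd70, a ligand of CD27, had 1.73 and 3.34 CPM, against 105 and 105 CPM. Lgals9, which encodes galectin-9, was the exception at 216 and 208 CPM, against 19.1 and 34.5 CPM (2.94, SE 0.37, adjusted p = 0.000392). Of 16 genes of MHC class II presentation, 2 were higher and 5 lower; of 17 of class I, none was higher and 3 lower, a share close to the 17.4% of all genes called lower. For the class I list, 4 genes were lower and 0 higher before adjustment (p under 0.05), and by DESeq2 6 were lower and 0 higher. H2-Aa itself had 2127 and 2503 CPM in Ccl21a-high cells and 5685 and 5493 CPM in Aire-positive cells and was not called (-1.38, SE 0.57, adjusted p = 0.0939). Ctsl, the cathepsin L gene used for class II peptides in cortical epithelium, was higher at 1626 and 1696 CPM, against 135 and 353 CPM, while Ctss, the cathepsin S gene, was lower at 27.7 and 30.1 CPM, against 236 and 181 CPM. Of 19 tested medullary regulators 2 were higher, a share near that of all genes, and 7 lower. Fezf2, which controls self-antigens that do not need Aire, had 81.6 and 62.7 CPM, against 562 and 483 CPM (-2.92, SE 0.88, adjusted p = 0.0285). Sirt1, a deacetylase gene that acts on Aire, had 31.5 and 30.9 CPM, against 292 and 204 CPM.

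Mimetic genes mark medullary cells that resemble other cell types. Of 25 tested mimetic cell genes, none was higher than in Aire-positive cells and 14 were lower (median log2 fold -2.64; 1 higher and 17 lower at an unadjusted p under 0.05, 12 lower with DESeq2). Insm1, an endocrine factor gene, had 6.92 and 10.0 CPM in Ccl21a-high cells, against 174 and 135 CPM in Aire-positive cells (-4.36, SE 0.67, adjusted p = 0.000995). Genes with no UMI in any Ccl21a-high cell get a bound from a floor of 3 counts over the class. Such genes were among the lowest folds at 50 CPM or more. On that floor Ang4, an antimicrobial gene of the gut, was at least 157-fold lower, Prg2, the eosinophil major basic protein gene, at least 156-fold lower, and Smtnl1 at least 109-fold lower. Il9 was at least 98.9-fold lower, BC037156 at least 87.0-fold, Myl7, an atrial myosin gene, at least 86.1-fold, and Klk1b9 at least 77.9-fold. Ptgds had 2 UMIs in Ccl21a-high cells and 1597 in Aire-positive cells, a ratio of 419 (95% exact interval 116 to 3464). The neutrophil markers S100a8, S100a9, Ly6g and Retnlg summed to 11.8 and 9.19 CPM in Ccl21a-high cells, against 2332 and 1760 CPM in Aire-positive cells.

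Of 27 tested interferon response genes, 19 were called higher than in Aire-positive cells and 1 lower. Their median log2 fold there, 1.99, was the highest of the 16 lists (all genes -0.05). Against cortical cells 13 were called higher and 1 lower (median 1.53, all genes 0.04), below the median of 1.79 of the dissociation stress list. Against Ccl21a-low cells none of the 27 was called higher and 1 was lower (median 0.51, all genes -0.02; 8 higher at an unadjusted p under 0.05, 1 higher with DESeq2). Ifi27l2a, an interferon-induced mitochondrial protein gene, had 5564 and 5210 CPM in Ccl21a-high cells, against 372 and 477 CPM in Aire-positive cells (3.57, SE 0.34, adjusted p = 0.000148), 4109 and 2452 CPM in Ccl21a-low cells (0.82, not called) and 945 and 925 CPM in cortical cells (2.64, SE 0.33, adjusted p = 0.00101). Rtp4, an interferon-induced gene, had 205 and 165 CPM, against 12.6 and 14.9 CPM in Aire-positive, 121 and 96.4 CPM in Ccl21a-low and 27.5 and 49.2 CPM in cortical cells. Isg15, a ubiquitin-like modifier gene, had 1170 and 705 CPM, against 137 and 87.7 CPM in Aire-positive, 1027 and 639 CPM in Ccl21a-low and 230 and 231 CPM in cortical cells. Isg20, an exonuclease gene, was the exception in all 3: 15.2 and 15.9 CPM in Ccl21a-high cells, against 29.99 and 32.6 CPM in Aire-positive, 71.3 and 72.9 CPM in Ccl21a-low and 964 and 948 CPM in cortical cells. Isg15 and the genes whose promoters follow were named after their values were seen.

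**Figure D3:**
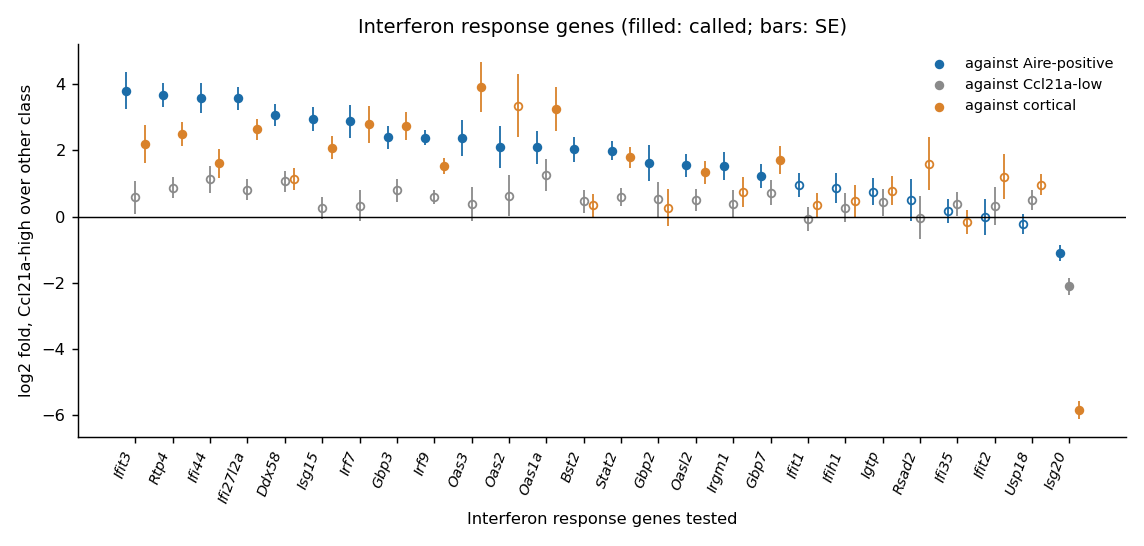
Log2 folds with SE of 26 of the 27 tested interferon response genes in Ccl21a-high cells over Aire-positive (blue), Ccl21a-low (grey) and cortical cells (orange), ordered by the first; filled points were called. The 18 blue points called higher run from Ifit3 at the left to Gbp7, and Isg20 at the right is below 0 in all 3 comparisons.

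The promoters of interferon response genes are known to hold elements bound by interferon-activated factors. Of the 28 list genes, 22 were found in the RefSeq promoter table (GRCm38), and the 250 bases before their starts were searched on both strands for GAAA, any 2 bases and GAAA again, a motif of 10 bases whose matches may overlap. The motif was present before at least 1 start of 13 of these 22 genes (59.1%), against 3.46% of all 27025 genes in the table. The stretches around the motif are shown for 5 genes called higher against both Aire-positive and cortical cells, with the motif, read on either strand, in capitals.
Isg15, chr4:156200845-156200926, minus strand: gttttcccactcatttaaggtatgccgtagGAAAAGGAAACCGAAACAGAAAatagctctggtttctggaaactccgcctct
Ifit3, chr19:34583343-34583446, plus strand: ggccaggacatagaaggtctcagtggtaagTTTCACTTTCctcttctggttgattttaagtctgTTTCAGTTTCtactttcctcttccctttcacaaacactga
Oas1a, chr5:120907526-120907575, minus strand: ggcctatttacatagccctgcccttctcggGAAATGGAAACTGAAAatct
Gbp3, chr3:142559969-142560043, plus strand: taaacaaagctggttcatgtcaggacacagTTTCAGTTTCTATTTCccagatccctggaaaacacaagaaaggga
Stat2, chr10:128270248-128270315, plus strand: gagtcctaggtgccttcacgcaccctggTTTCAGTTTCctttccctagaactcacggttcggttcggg
Isg15 held 3 overlapping matches, Ifit3 2 separate ones, Oas1a and Gbp3 2 overlapping ones each and Stat2 1. Of the 11 searched genes called higher in both comparisons, 7 held the motif. Irf7, Irf9, Ifi44 and Oasl2, called higher in the same comparisons, held none in this window. Among genes not called higher in both, Ifit1, Bst2, Rsad2, Gbp2, Igtp and Irgm1 held the motif too, while Isg20, Ifit2, Ifi35, Ifih1 and Ddx58 did not. The motif was thus not particular to the genes called. A match is a description of the letters and not a test of binding.

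Dissociation stress genes moved with the interferon genes in the same comparisons. Of 19 tested, 10 were called higher than in Aire-positive cells and none lower (median log2 fold 1.42), and 11 were higher than in cortical cells and none lower (median 1.79). No gene of this list was lower at an unadjusted p under 0.05 or by DESeq2 in either comparison. Fos, an immediate early gene, had 945 and 1030.2 CPM in Ccl21a-high cells, against 180 and 252 CPM in Aire-positive and 267 and 275 CPM in cortical cells. The heat shock gene Hspb1 had 1670 and 1487 CPM, against 387 and 276 CPM in Aire-positive and 90.8 and 168 CPM in cortical cells. Ccl21a-low cells had 1054 and 1077 CPM of Fos and 1293 and 1534 CPM of Hspb1, close to Ccl21a-high cells, and there 0 of 19 genes were called (0 also at an unadjusted p under 0.05 and with DESeq2). The part of cell dissociation in the other lists was not tested.

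Where cell cycle genes were called against Aire-positive cells, they were lower. Of 32 tested, 14 were called lower and none higher (median log2 fold -2.24; 25 lower and 0 higher at an unadjusted p under 0.05, 21 lower and 0 higher with DESeq2). Tyms, needed for DNA synthesis, had 8.64 and 14.2 CPM in Ccl21a-high cells, against 24.6 and 44.6 CPM in Aire-positive cells (-1.66, SE 0.33, adjusted p = 0.0042), and Ccne2, a cyclin gene of S-phase entry, had 3.11 and 2.51 CPM, against 22.5 and 21.6 CPM. Mki67 had 22.1 and 30.1 CPM in Ccl21a-high cells and 90.2 and 93.4 CPM in Aire-positive cells and missed the threshold (-1.97, SE 0.72, adjusted p = 0.0607). In cells thinned to 1000 UMIs, at least 2 UMIs over 16 G2/M genes were found in 1.36% of Ccl21a-high cells in library 1 and 4.76% in library 2 (95% exact intervals 0.371 to 3.44% and 2.20 to 8.85%). The shares were 9.09% and 18.03% in Aire-positive, 1.70% and 11.8% in Ccl21a-low and 4.05% and 31.8% in cortical cells. Without thinning the shares were 11.5% and 20.6% in Ccl21a-high cells, against 48.7% and 45.9% in Aire-positive cells. The share was higher in library 2 in every class, fibroblasts included (1.43% and 18.5%), where cells of the thymocyte class numbered 1497, against 108 in library 1. How far free RNA enters these shares was not tested.

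In the E2F and Rb network, the pathway to which the deleted promoter sites belong, 1 of 25 tested genes was higher and 9 lower than in Aire-positive cells. Ccnd2, the cyclin D2 gene, had 145 and 96.9 CPM in Ccl21a-high cells, against 785 and 682 CPM in Aire-positive cells (-2.69, SE 0.29, adjusted p = 0.000195), and Cdkn2b, a cyclin-dependent kinase inhibitor gene, had 4.15 and 5.01 CPM, against 73.3 and 50.8 CPM. Tfdp2, which encodes an E2F dimer partner, was the higher gene at 71.9 and 85.2 CPM, against 33.3 and 28.3 CPM. Foxn1 lies at chr11:78357577-78386558 on the minus strand. Its level was 40.5 and 66.0 CPM in Ccl21a-high cells, against 147 and 154 CPM in Aire-positive cells (-1.63, SE 0.47, adjusted p = 0.0228), 48.1 and 63.7 CPM in Ccl21a-low cells (0.01, SE 0.48, not called) and 288 and 130 CPM in cortical cells (-1.998, SE 0.48, adjusted p = 0.0304; -2.74 in library 1 alone and -0.84 in library 2 alone). The libraries of Ccl21a-high cells lay below all those of Aire-positive and cortical cells and overlapped those of Ccl21a-low cells. After thinning, 3.73% and 4.23% of Ccl21a-high cells held a Foxn1 UMI, against 12.4% and 6.97% of Aire-positive, 3.41% and 7.22% of Ccl21a-low, 16.2% and 10.9% of cortical cells and 0.115% and 0.451% of fibroblasts. The exact intervals for library 2 were 1.84 to 8.17% in Ccl21a-high cells and 4.11 to 10.9% in Aire-positive cells.

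**Figure D4:**
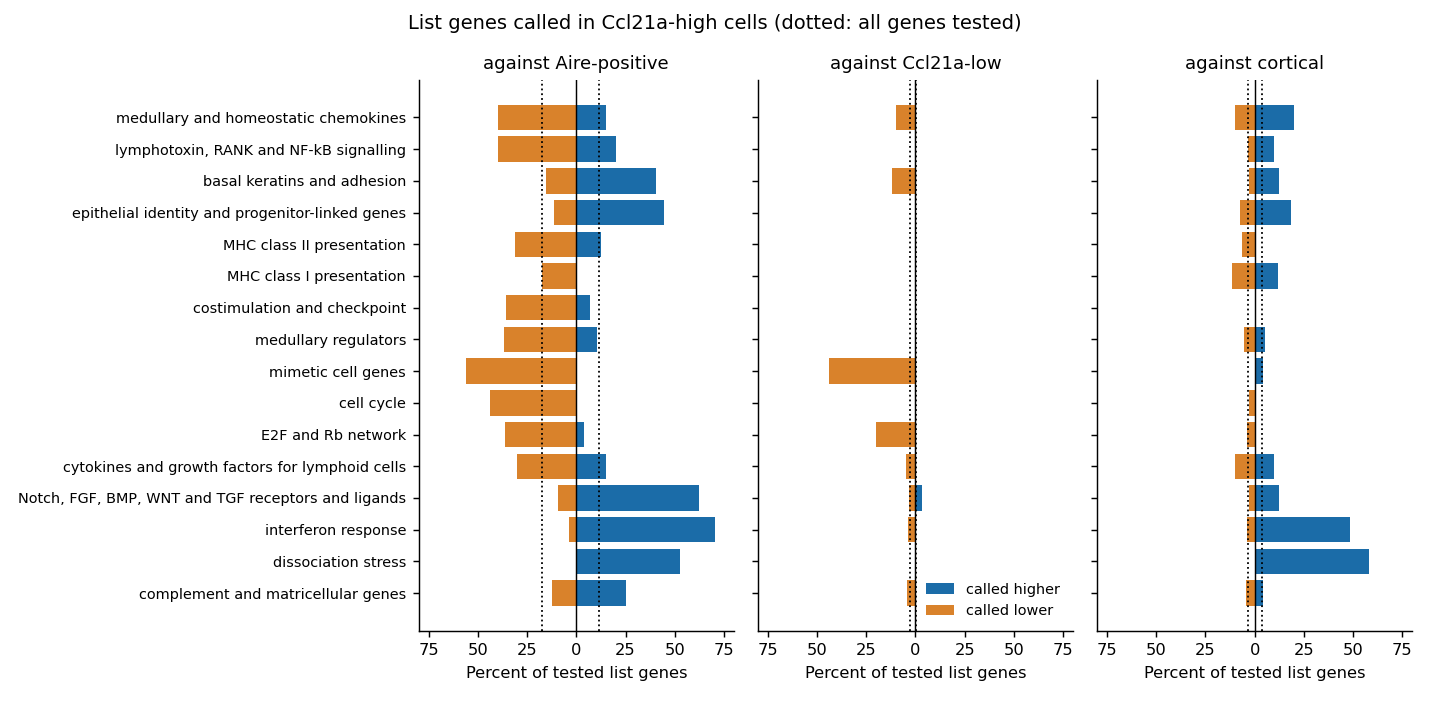
Percent of tested genes of each of the 16 lists called higher (blue, to the right) or lower (orange, to the left) in Ccl21a-high cells against Aire-positive, Ccl21a-low and cortical cells; dotted lines give the same percents over all genes tested. Interferon and stress genes extend furthest to the right in the comparison with cortical cells, and mimetic cell genes furthest to the left in that with Ccl21a-low cells.

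The Ccl21a-low cells share the keratin term of the rule, and 27 list genes, 11 of them mimetic genes, separated them from Ccl21a-high cells. Of 25 tested mimetic genes none was higher and 11 were lower (median log2 fold -3.19; 16 lower at an unadjusted p under 0.05, 13 lower with DESeq2). Sbsn, a gene of cornifying keratinocytes, had 12.4 and 16.7 CPM in Ccl21a-high cells, against 231 and 699 CPM in Ccl21a-low cells (-4.70, SE 0.36, adjusted p = 0.000193). Ltf, the lactoferrin gene, had 1 UMI in Ccl21a-high cells and 2101 in Ccl21a-low cells, a ratio of 2274 (95% exact interval 408 to 89857). With no UMI in Ccl21a-high cells, Gabrp was at least 192-fold lower and Ear1 at least 115-fold lower. Krt19, a keratin gene of simple epithelia, had 12.4 and 12.5 CPM, against 297 and 399 CPM (-4.78, SE 0.58, adjusted p = 0.00253), and Cldn4 had 2.07 and 2.51 CPM, against 88.0 and 182 CPM. The cell cycle inhibitor gene Cdkn1a had 36.3 and 30.1 CPM, against 285 and 558 CPM (-3.55, SE 0.44, adjusted p = 0.00254), and Cdkn2a had 1.38 and 2.51 CPM, against 112.5 and 165 CPM (-6.15, SE 0.76, adjusted p = 0.00324). Spink5, a protease inhibitor gene of the epidermis, had 3.80 and 14.2 CPM, against 979 and 1705 CPM. Ackr4, an atypical receptor that takes up CCL19, CCL21 and CCL25, had 6.22 and 12.5 CPM in Ccl21a-high cells, against 101 and 72.3 CPM in Ccl21a-low cells (-3.25, SE 0.50, adjusted p = 0.0070).

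No gene was called between Ccl21a-high and Ccl21a-low cells with edgeR in the lists for NF-kB signalling, epithelial identity, MHC class II, MHC class I, costimulation, medullary regulators and the cell cycle. With no adjustment, 3, 7, 1, 1, 6, 3 and 1 genes of these lists in that order had a p under 0.05, while DESeq2 called 1, 0, 0, 0, 0, 1 and 0. Trp63 had 231 and 245 CPM in Ccl21a-high cells and 210 and 161 CPM in Ccl21a-low cells (0.46, SE 0.53, adjusted p = 0.748), and Relb had 86.4 and 87.7 CPM against 81.0 and 76.6 CPM (0.25, SE 0.33, adjusted p = 0.789). Such p-values do not show that the levels were equal. Of the other lists, the adhesion list had 0 of 33 genes higher and 4 lower, the E2F and Rb list 0 of 25 higher and 5 lower, the chemokine list 0 of 20 higher and 2 lower, and the pathway list with Tgfbr1 1 of 32 higher and 1 lower. Over all genes 0.388% were called higher and 2.78% lower in this comparison. The cytokine list had 1 of 20 genes lower, Il33, an alarmin gene with 0.692 and 6.68 CPM in Ccl21a-high cells, against 32.9 and 67.4 CPM in Ccl21a-low cells, and the complement and matricellular list 1 of 24, Lgals3, the galectin-3 gene.

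Of the 55 genes called higher than in Ccl21a-low cells, the 10 highest folds at 50 CPM or more included the following. Scx had 154 and 124 CPM in Ccl21a-high cells, against 32.4 and 21.0 CPM (2.47, SE 0.46, adjusted p = 0.0216), and Wfikkn2 had 271 and 266 CPM, against 73.6 and 42.0 CPM (2.31, SE 0.42, adjusted p = 0.0151). Scn7a, a sodium channel family gene, had 110.995 and 135 CPM, against 13.4 and 19.2 CPM (3.05, SE 0.36, adjusted p = 0.00229). Gpx3, a secreted glutathione peroxidase gene, had 222 and 343 CPM, against 56.0 and 48.2 CPM (2.48, SE 0.50, adjusted p = 0.0246). Fibroblasts held 159 and 179 CPM of Scn7a and 167 and 184 CPM of Gpx3. Fibroblast markers outside the rule summed to 252 and 725 CPM in Ccl21a-high cells, below the 774 and 1009 CPM in Ccl21a-low cells. Sprr2a3, a gene of the small proline-rich family, had 83.3 and 170 CPM, against 13.4 and 15.5 CPM. Sprr2a3, and Klk1b9 and Ear1 given above, belong to families with near-identical copies among which reads can be split, so their values are uncertain. The noncoding RNA 6030407O03Rik (3.78), Gm8113 (2.46), Pthlh, the parathyroid hormone-like hormone gene (2.28) and Rrad (2.26) were also among the 10 highest folds. The copy Gm21541 is counted there too (3.36), but since it is nearly identical to the gene that defined the class its fold is a description.

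Against cortical cells, the calls in Ccl21a-high cells went both ways in most lists other than the interferon and stress lists given above. Of 20 tested chemokine genes, 4 were called higher and 2 lower. Cxcl12, the CXCR4 ligand gene of cortical epithelium, had 87.8 and 100.3 CPM in Ccl21a-high cells, against 1416 and 1290.2 CPM in cortical cells (-3.74, SE 0.75, adjusted p = 0.0125), and Ackr4 had 6.22 and 12.5 CPM, against 77.0 and 67.4 CPM (-2.995, SE 0.51, adjusted p = 0.00556). Dll4, the Notch ligand gene that commits progenitors to the T lineage, had 2.07 and 1.67 CPM, against 50.7 and 38.9 CPM (-4.48, SE 0.74, adjusted p = 0.00479). Kitl, the stem cell factor gene, had 6.57 and 10.9 CPM, against 107 and 104 CPM (-3.57, SE 0.67, adjusted p = 0.00875), whereas Il7 had 196 and 200 CPM, against 252 and 168 CPM, and was not called. Id1 and Id2, inhibitors of helix-loop-helix factors, had 262 and 145 CPM and 231 and 182 CPM in Ccl21a-high cells, against 10.6 and 15.5 CPM and 36.9 and 28.5 CPM in cortical cells (4.21 and 2.76, adjusted p = 0.00463 and 0.0023). Of the pathway list that holds them, 4 of 32 genes were higher and 1 lower.

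RANK and epithelial genes added to this comparison. Tnfrsf11a had 74.3 and 39.3 CPM in Ccl21a-high cells, against 5.01 and 15.5 CPM in cortical cells (3.00, SE 0.73, adjusted p = 0.0305; 3.94 in library 1 alone and 1.46 in library 2 alone), one of 3 genes called higher in the NF-kB list, where 1 of 30 was lower. Epcam had 1082 and 1008 CPM, against 318 and 306 CPM (1.86, SE 0.28, adjusted p = 0.00622), and Itga6, an integrin gene of basal cells, had 411 and 373 CPM, against 107 and 95.9 CPM (2.06, SE 0.40, adjusted p = 0.00994). Krt18, a keratin gene of simple epithelia, was lower at 1274 and 1518 CPM, against 5845 and 4459 CPM. In the adhesion list 4 of 33 genes were higher and 1 lower, and in the identity list 5 of 27 were higher and 2 lower. Pax1, a pharyngeal pouch factor gene, was lower at 92.0 and 101 CPM, against 526 and 500.03 CPM (-2.31, SE 0.61, adjusted p = 0.0454). Spib, an Ets family factor gene of the medulla, had 48.1 and 46.0 CPM in Ccl21a-high cells, or 194 UMIs, against 2 UMIs in cortical cells, a ratio of 47.1 (95% exact interval 12.9 to 391). It was the higher gene of the medullary regulator list, where 1 of 19 was lower. Over all genes, 3.82% were called higher and 3.52% lower in this comparison. The cytokine list had 2 of 20 genes higher and 2 lower. The other lists had 1 of 25 mimetic genes higher (Krtdap), 1 of 24 complement genes higher and 1 lower, 1 of 32 cell cycle genes lower (Tyms) and 1 of 25 E2F and Rb genes lower (Cdkn2c).

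In the presentation lists, 1 of 16 class II genes was called lower than in cortical cells, and of 17 class I genes 2 were higher and 2 lower. Over all genes 3.82% were called higher and 3.52% lower. Ctsl had 1626 and 1696 CPM in Ccl21a-high cells, against 15227 and 9679 CPM in cortical cells (-2.78, SE 0.60, adjusted p = 0.0187), the one class II list gene called of 16. The immunoproteasome genes Psmb10 (-2.10) and Psmb9 (-1.57) were lower, while Psme1 (1.92; 2.62 in library 1 alone and 1.31 in library 2 alone), which encodes a proteasome activator, and Nlrc5 (1.90), the class I transactivator gene, were higher, out of 17 genes of the class I list. Of 14 costimulation genes 0 were called with edgeR, 3 had a p under 0.05 before adjustment and 1 was called by DESeq2. The genes with the lowest folds included Tbata, a gene of thymic stroma, at 90.9 and 109 CPM against 8190 and 7387 CPM (-6.21, SE 0.75, adjusted p = 0.000954), Fxyd2, a sodium pump regulator gene, at 22.5 and 27.6 CPM against 1995 and 2226 CPM (-6.30, SE 0.40, adjusted p = 3.89e-05) and Cd83 at 1.04 and 1.67 CPM against 359 and 324 CPM (-7.95, SE 0.63, adjusted p = 0.000149). Among the highest was Wfdc18, a gene of the whey acidic protein family, at 3873 and 4640 CPM against 11.9 and 249 CPM (5.83, SE 1.08, adjusted p = 0.00833; 8.42 in library 1 alone and 4.35 in library 2 alone). Thymocyte markers summed to 93.4 and 288 CPM in Ccl21a-high cells, against 836 and 855 CPM in cortical cells, and their part in these values was not tested.

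Ccl21a-high cells also varied among themselves. In cells thinned to 1000 UMIs, the ratio of variance to mean was computed for 1235 genes with a mean of at least 0.1 UMI, and the median of the lower of both libraries' ratios was 0.999, near that of counting alone. Wfdc18 had ratios of 8.11 and 15.1, with a UMI in 66.1% and 59.3% of cells and up to 38 and 57 UMIs in 1 cell. Cxcl10, an interferon-induced chemokine gene, had ratios of 4.62 and 3.71, with a UMI in 31.9% and 21.7% of cells. Apoe (2.51 and 4.43), Igfbp5 (2.46 and 2.81), Gm8113 (2.74 and 3.17), Fabp5, a fatty acid binding protein gene (2.31 and 2.99), Fos (2.30 and 2.34) and Jun (2.28 and 2.33) followed. These genes were picked by their ratio, so the values carry no test. Malat1 (13.8 and 17.6) had higher ratios than Wfdc18 in both libraries, and Gm42418 (33.2 and 13.3) in library 1 only. Both are abundant RNAs that vary with RNA quality. The mitochondrial genes mt-Atp6 (2.42 and 2.58) and mt-Co1 (2.43 and 2.29) lay among those named. The part of RNA quality in these ratios was not tested.

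The class was divided at the median of Ccl21a in each library, with 147 and 94 cells above and 148 and 95 below, as a description with no test. Of 5265 genes considered, 3 differed by a log2 value of at least 1 upward in both libraries, Sprr1a, Gpx3 and Sprr2a3, and 4 downward, Enpp2, Igfbp7, Bgn and Stmn2. Counted by library, 12 genes differed upward and 12 downward in library 1, and 109 and 70 in library 2. Sprr2a3 had 4 UMIs in the cells below the median of library 2. Gpx3 had 316 and 492 CPM in the cells above the median, against 122 and 118 CPM in those below. Sprr1a had 94.3 and 88.5 CPM above, against 13.3 and 28.5 CPM below. Bgn, a matrix proteoglycan gene of mesenchyme, had 7.31 and 11.1 CPM above, against 26.7 and 70.1 CPM below. Depth moved with this division in library 2, where cells above the median had a median of 6318.5 UMIs and cells below it 3126, while library 1 had 8624 and 8368.5. Thymocyte markers also differed there, at 174 CPM above and 480 CPM below in library 2, and 93.6 and 95.5 CPM in library 1. Their part in the listed differences was not tested.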

How the data were processed

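For 2 libraries of the 10x Genomics 3' kit, the deposited values are UMI counts with no normalisation by the authors. Cell Ranger appears in version 7 in the submitters' processing notes, beside Seurat 4 and mm10, and in version 6.0.0 per the file headers. Whether the authors filtered barcodes is not given in the sources used here. Libraries held 41075328 and 42583831 UMIs. Cells were filtered and gated as stated in the report; no doublet caller was run and doublets were not removed. For cells without a Ccl21a-high label, Aire-positive cells needed at least 1 Aire UMI and 2 per 10000 as well as Epcam, and cortical cells at least 3 UMIs and 10 per 10000 over Psmb11, Prss16 and Ccl25; fibroblast, endothelial and thymocyte classes had no Epcam UMI. UMIs were summed per library and class (14 sums) and fitted with edgeR 4.0.16 in R 4.3.3 (TMM scaling, filterByExpr, quasi-likelihood test, library as a block since all classes of a library are separate sets of cells from that library, 6 residual degrees of freedom, 14198 genes). The common biological coefficient of variation was 0.268. Gate genes were left out of the tests and p-values were adjusted by the Benjamini-Hochberg method over all genes tested. Named genes are up to 2 called genes per list and direction by smallest p, the 10 highest and 10 lowest called folds at 50 CPM or more, and 20 genes always given, except that 2 list genes are counted with their lists but not reported here by name; others are said to be chosen after their values were seen. The members and the 16 gene lists (392 genes) were chosen with earlier results of these data known. Positions come from GENCODE (GRCm38, equal to mm10) by gene identifier, matched for 32235 of 32285 identifiers. On simulated sums over 14198 genes with 100 genes changed 4-fold and 100 changed 2-fold, the fit called 58% of the 4-fold changes in each comparison. It called 3%, 3% and 1% of the 2-fold changes against Aire-positive, Ccl21a-low and cortical cells. Unchanged genes made up 8 of 69, 9 of 70 and 4 of 63 calls in the same order. Alternatives were DESeq2 1.42.0, no filter on low counts, no replicate block, other thresholds, thinned cells and subsets of cells.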

Additional observations from a re-analysis of the deposited data

How the results depend on the processing

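The counts of called genes without the replicate block were 3687, 354 and 889 against Aire-positive, Ccl21a-low and cortical cells, each within 1.5 times of 4119, 449 and 1042. Leaving out a library left no residual degrees of freedom, so it gave log2 folds with no test, and all 81, 32 and 59 named called genes kept their direction in each library alone. With cells thinned to 1000 UMIs, where fewer genes were tested, 894, 75 and 259 genes were called. At a Ccl21a threshold of 25 per 10000, 624 genes were called against Ccl21a-low cells, 134 of them higher. With Ccl21a-high cells held to at least 100 per 10000, 336 were called, 46 of them higher, beside 449 with 55 higher in the main fit. With no filter on low counts 1274 genes were called against Ccl21a-low and 1718 against cortical cells; of the genes called against Aire-positive cells, 30.1% were then higher, against 40.1% with the filter. Without cells over 20000 UMIs, an alternative chosen after seeing the data, 288 and 627 genes were called against Ccl21a-low and cortical cells. A fit over the 4 epithelial classes, also chosen afterwards, called 944 (23.7% of them higher, against 12.2%) and 2235. DESeq2 called 1578 against cortical cells, and moved the median log2 fold of all genes against Aire-positive cells to -0.16. The share of Ccl21a-high cells was 4.65% and 1.38% at a threshold of 100, 9.89% and 2.81% at 25, and 6.58% and 1.16% without cells holding thymocyte markers, in libraries 1 and 2; it was 3.396% in library 2 with the stricter cell filter. Of the named called genes, 59 of 81, 18 of 32 and 34 of 59 were called under every alternative that tested them. Log2 folds that changed sign were all of genes not called. Thinning gave -1.31 for Ackr4 against Aire-positive cells; 0.030 for Ltbr, -0.60 for Relb, -0.85 for Tnfrsf11a, -0.49 for Foxn1 and -0.087 for Krt17 against Ccl21a-low cells; and -0.37 for Relb against cortical cells. Without cells over 20000 UMIs the folds were -0.0040 for Relb, -0.33 for Foxn1 and 0.24 for Krt15 against Ccl21a-low cells, and -0.22 for Relb and -0.039 for Il7 against cortical cells. Without cells holding thymocyte markers they were -0.48 for Foxn1 against Ccl21a-low cells, and -0.23 for Relb, 6.52 for Cd80 and -0.16 for Il7 against cortical cells. DESeq2 gave -0.021 for Foxn1 and -0.0027 for Il7, no filter -0.0027 for Foxn1, and the 4-class fit -0.0061 for Foxn1. A threshold of 25 gave 0.85 for Mki67 and -0.034 for Il7, and the stricter cell filter 0.41 for Krt15 and 0.33 for Cd80. The cause was not tested.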
